A study of Nasonia vitripennis with 15 samples.

Results

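The dyneins and other sperm motility genes of the parasitoid wasp Nasonia vitripennis were followed in the testes of young pupae, at control temperature and under heat. The set holds the 5 genes that the study names for sperm motility, found in the counts by their NV numbers. They are NV16467 and NV14122, both named only dynein, Dnai2 (NV10124), heat (NV10434) and Kl5 (NV16259, which the study also names mule). Here heat in the plain form is the name of a gene, and exposure to 36 °C is always given by its temperature. Each of the 5 genes had 1 transcript in the counts, so that 5 of 26279 transcripts are described. All 5 passed the filter on low counts in every comparison. Since the study named these genes for a rise between its 2 stages, their rise from 0 h to 24 h at 25 °C is a description and no independent evidence. Pools of that contrast also serve in the steps from 0 h to 10 h and from 10 h to 24 h at 25 °C. White nymphs gave the pools at both 0 h and 10 h, and the study does not say which it used. The step from 10 h to 24 h at 25 °C may thus itself be the contrast on which it named the genes. The pools at 24 h and 25 °C serve again in the comparison with 36 °C at 24 h. These results are therefore not free of that choice either.

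The 15 libraries were made from RNA of pooled testes of the strain AsymC, with 3 pools (lettered A, B and C) per group. The labels give 60 testes to a pool, and the study's methods a larger number. Control pools at 0 h came from white nymphs kept at 25 °C. White nymphs also gave the pools at 10 h, at 25 °C or 36 °C, and white nymphs with red eyes gave those at 24 h, again at either temperature. No label used here says that pools of equal letter share animals, and the p-values measure the spread between pools. The total count per library was 1749769 to 7154421, and the 5 transcripts had between 616 and 20105 counts in every library. Counting error alone was therefore at most 4.03% of a value, and the spread between pools was the main limit. Levels are given as CPM (counts scaled to library size, with TMM factors), and in bulk testis RNA fewer cells of a type cannot be told apart from less RNA per cell.

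Axonemal dyneins are motor complexes that sit in rows on the outer microtubules of a cilium or flagellum, and make them slide so that the sperm tail beats. A complex is built from heavy chains, which carry the motor, and from intermediate and light chains, which hold it together and tie it to the microtubule. Dnai2 is an intermediate chain of the outer dynein arm in vertebrates, and kl-5 in Drosophila is a heavy chain that sperm motility needs. In insect testes, genes for the sperm tail are often transcribed in spermatocytes, well before the tail is built. By the study's account the germ cells are primary spermatocytes in white nymphs and secondary spermatocytes in the red-eyed stage.

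One library stood apart and touches every result at 36 °C. By the first principal component of all transcripts that passed the filter (48.3% of the variance), pool B at 10 h and 36 °C lay at 29.6, whereas the other pools of its group lay at -39.3 and -51.9. Pool B was also the highest at 0 h (-33.7 against -47.1 and -58.1) and at 10 h and 25 °C (21 against -14.8 and -12.1). At 24 h it was not the highest at either temperature. Over 5789 transcripts, the root mean square log2 difference of pool B at 10 h and 36 °C was 0.37 to 0.455 to the pools at 24 h and 36 °C. It was 0.486 to pool B at 10 h and 25 °C, and 0.82 and 0.977 to pools A and C of its own group. Its small heat shock protein NV13801 had 1674 CPM, above the 181 to 415 CPM of the pools at 10 h and 24 h at 25 °C. This was below the 4166 and 3791 CPM of pools A and C, and the pools at 24 h and 36 °C had 1704 to 2278 CPM. Pool B was also below pools A and C for NV13797, NV13798 and NV13802 of this family, with 1386, 507 and 550 CPM. At 24 h and 36 °C these had 1406 to 2153, 470 to 820 and 502 to 680 CPM. For NV13799 pool B (5630 CPM) lay between pools A and C (5883 and 5504 CPM). Each test that uses the pools at 10 h and 36 °C is given with and without this pool, which was also the highest of its group for all 5 genes, so that leaving it out also removes their highest values. Of the germ line markers, 5 of 7 were in the counts (bol and tud were not analysed here). In pool B at 10 h and 36 °C klhl10, a testis ubiquitin ligase adaptor, had 1660 CPM, against 526 and 370 CPM in pools A and C. Cyclin B had 584 CPM against 281 and 218 CPM. The aub/piwi genes NV16500 (5.89 against 16.3 and 12.2 CPM) and NV12150 (9.43 against 14.1 and 18.6 CPM) went the other way. NV10813 had 0.424, 0.442 and 1.96 CPM in pools A, B and C. At 25 °C klhl10 had 327 to 656 CPM at 0 h and 1796 to 2746 CPM at 24 h.

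Among markers of other tissues, the summed level of 5 muscle genes was 12.3 to 35.8 CPM at 0 h, 85.7 to 507 CPM at 10 h and 589 to 1188 CPM at 24 h at 25 °C, and 13.2 to 477 CPM at 10 h and 153 to 618 CPM at 24 h at 36 °C. Nearly all of it was Act88F, a flight muscle actin, and the troponin C genes NV11095, NV18893 and NV17687 stayed below 2 CPM in every library, while NV15310 reached 13.2 CPM. Cuticle genes as markers of epidermis summed to 105 to 1266 CPM in 14 libraries and to 12297 CPM in pool A at 24 h and 25 °C. The sum of 3 nerve markers was 46.8 to 124 CPM. Hexamerin genes of the fat body summed to 31.3 to 59.5 CPM at 0 h and 73.2 to 89.2 CPM at 24 h at 25 °C, and lower sums at 36 °C are given beside the results. The part of these tissues in the results below was not tested. Leaving out the cuticle transcripts changed no call of the 5 genes. It checks the scale of the libraries and cannot show the part of the epidermis.

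NV16467, named as a dynein, had 558, 1420.2 and 562 CPM in pools A, B and C at 0 h. It had 1322, 2773 and 1728 CPM at 10 h and 3454, 3732 and 3476 CPM at 24 h at 25 °C. At 36 °C it had 753, 2962 and 547 CPM at 10 h and 2181, 2995 and 2914 CPM at 24 h. Pool B was the highest in 5 of 5 groups, and the 3 pools at 24 h and 25 °C were above all 12 others. By group means the order was 24 h at 25 °C, 24 h at 36 °C, 10 h at 25 °C, 10 h at 36 °C and 0 h, and of these neighbours the first pair alone did not overlap.

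NV14122, the other gene named only dynein, had 525, 1051 and 536 CPM at 0 h. At 25 °C it had 892, 1569 and 1032 CPM at 10 h and 1602, 1815 and 1816 CPM at 24 h. At 36 °C it had 516, 1500.3 and 392 CPM at 10 h and 912, 1192 and 1198 CPM at 24 h. The pools at 24 h and 25 °C were again above all others, and all neighbours lower in the order of the means (10 h at 25 °C, 24 h at 36 °C, 10 h at 36 °C and 0 h) overlapped.

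Kl5 (NV16259) had 422, 1052 and 434 CPM at 0 h. At 25 °C it had 832, 1643 and 1106 CPM at 10 h and 1459, 1702 and 1849 CPM at 24 h. Exposed pools had 389.5, 1205 and 302 CPM at 10 h and 832, 934 and 904 CPM at 24 h at 36 °C. In this gene the exposed pools at 24 h were no higher than the range of the pools at 0 h. The mean at 10 h and 36 °C was 632 ± 498 CPM (SD, n = 3) and that at 0 h 636 ± 360 CPM, and without pool B the former was 346 CPM. The mean at 0 h keeps pool B, the highest there. Every pair of neighbours in the order overlapped.

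Dnai2 (NV10124), the intermediate chain, had 673, 859.9 and 439.9 CPM at 0 h. At 25 °C it had 1197, 1224 and 1037 CPM at 10 h and 1679.9, 1393 and 1458 CPM at 24 h. At 36 °C it had 721, 1283 and 534 CPM at 10 h and 1435, 1338 and 1347 CPM at 24 h. Unlike the other 4 genes, its pools at 24 h overlapped between 25 °C and 36 °C, and both groups at 24 h lay above every pool at 10 h and 25 °C.

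The gene heat (NV10434), which has no further description in the files, had 625, 1020.5 and 501 CPM at 0 h. At 25 °C it had 1167, 1595 and 1337 CPM at 10 h and 2618, 2232 and 2071 CPM at 24 h. At 36 °C it had 717, 1876 and 607 CPM at 10 h and 1461, 1679.5 and 1594 CPM at 24 h. Its pools at 24 h and 25 °C were above all 12 others, and the neighbours below them (24 h at 36 °C, 10 h at 25 °C, 10 h at 36 °C and 0 h) overlapped. Pool B also set the place of the group at 10 h and 36 °C in these orders. Without it, the mean there was below the mean at 0 h for each gene, at 649.8 against 847 CPM for NV16467, 454 against 704 CPM for NV14122, 628 against 658 CPM for Dnai2 and 662 against 715 CPM for heat. Within a group, the spread of the 5 genes was widest at 10 h and 36 °C, where the highest pool was 2.4 to 5.42 times the lowest (1.18 to 1.38 times without pool B), and narrower at 24 h, at 1.08 to 1.27 times at 25 °C and 1.07 to 1.37 times at 36 °C.

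**Figure D1:**
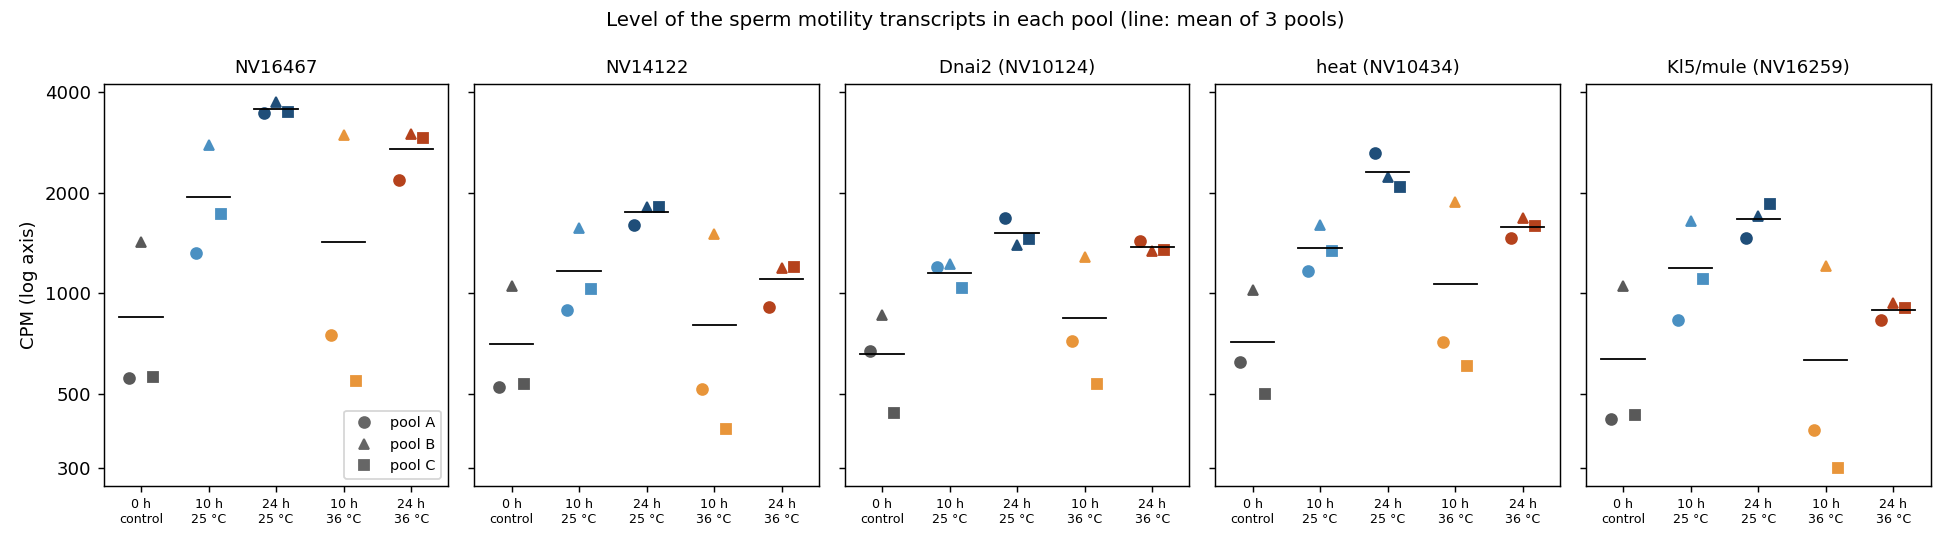
CPM (log axis) of the 5 sperm motility transcripts in each of the 15 pools, by time and temperature, with pools A, B and C as circles, triangles and squares and a line at the mean of 3 pools. At 10 h and 36 °C pool B lies at 2.4 to 5.42 times the lowest pool of its group. At 24 h all 3 pools at 36 °C lie below all 3 at 25 °C for 4 of the 5 genes, as for 24.3% of all transcripts.

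From 0 h to 24 h at 25 °C all 5 genes rose, on a contrast by which the study had chosen them. The fold was 4.27 for NV16467, 3.27 for heat, 2.67 for Kl5, 2.52 for NV14122 and 2.32 for Dnai2, with adjusted p (edgeR's quasi-likelihood test) between 0.00093 and 0.00640. In this comparison 19.9% of the 7809 transcripts tested were higher by the same threshold (adjusted p under 0.05), and nothing is read from the count of the 5.

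The first step, from 0 h to 10 h at 25 °C, raised the mean of each gene, but none of the 5 passed in edgeR's test without pairing, whereas 3.4% of 8206 transcripts were called higher. All 5 had an unadjusted p under 0.05, and the adjusted p was 0.0747 to 0.192. The log2 fold change was 1.19 (SE 0.38) for NV16467, 0.92 (SE 0.26) for heat, 0.90 (SE 0.35) for Kl5, 0.80 (SE 0.24) for Dnai2 and 0.72 (SE 0.30) for NV14122. Only for Dnai2 and heat were the 3 pools at 10 h above the 3 at 0 h, as for 14.1% of all transcripts tested, because pool B at 0 h was high in the other 3 genes. Pools of equal letter deviated together in these groups, and with the letter as a block all 5 rose, with log2 fold changes of 0.74 to 1.26 and adjusted p of 0.00024 to 0.00224, where 12% of all transcripts were called higher. In each letter the pool at 10 h was above that at 0 h for each of the 5 genes, and the share of all transcripts with this order was not counted. DESeq2 called 2 of 5, Dnai2 and heat (6.5% of all transcripts), and edgeR called 5 of 5 without the filter on low counts (3.75%) and 5 of 5 without pool B at 0 h (8.54%).

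In the step from 10 h to 24 h at 25 °C, which ends at red eyes, the gene heat rose 1.68-fold (log2 0.75, SE 0.19, adjusted p = 0.0437 in edgeR), and it was the only one of the 5 to pass, against 3.22% of 7573 transcripts called higher. NV16467 had a log2 fold change of 0.87 (SE 0.25, adjusted p = 0.0596), NV14122 of 0.58 (SE 0.22, adjusted p = 0.122) and Dnai2 of 0.38 (SE 0.18, adjusted p = 0.194). Kl5 had a log2 fold change of 0.48 with a 95% interval from -0.03 to 0.99. All pools at 24 h were above all pools at 10 h for NV16467, NV14122, Dnai2 and heat, as for 15.6% of transcripts, and Kl5 overlapped because pool A at 24 h (1459 CPM) was below pool B at 10 h (1643 CPM). The call of heat was lost without pool A or C at 10 h or pool A or B at 24 h (adjusted p up to 0.176 in edgeR). Few transcripts of any kind were called higher in these fits. The number was 0 of 7657 and 0 of 8015 without pool A or C at 10 h. Without pool A or B at 24 h it was 9 of 7670 and 27 of 8125. Without pool B at 10 h 4 of 5 genes passed (6.42% of transcripts), and DESeq2 called 3 of 5 (6.69% of transcripts), NV16467, NV14122 and heat.

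At 36 °C, the same step from 10 h to 24 h had log2 fold changes of 0.94 (SE 0.51) for NV16467, 0.71 (SE 0.28) for Dnai2, 0.58 (SE 0.36) for heat, 0.51 (SE 0.42) for Kl5 and 0.47 (SE 0.41) for NV14122. None of the 5 passed in edgeR's test (adjusted p 0.192 to 0.514) or in DESeq2, 1 of 5 (Dnai2) had an unadjusted p under 0.05, and 0.0599% of all transcripts were called higher. Without pool B at 10 h all 5 rose, NV16467 by 4.19-fold, Kl5 by 2.60-fold, NV14122 by 2.45-fold, heat by 2.41-fold and Dnai2 by 2.21-fold (adjusted p 0.000198 to 0.000864). In that fit 17.9% of all transcripts were called higher. Pool B at 10 h and 36 °C lay instead near the later pools, since its 5 levels were within or above the range of the pools at 24 h and 36 °C for NV16467, NV14122, heat and Kl5, and below it for Dnai2.

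**Figure D2:**
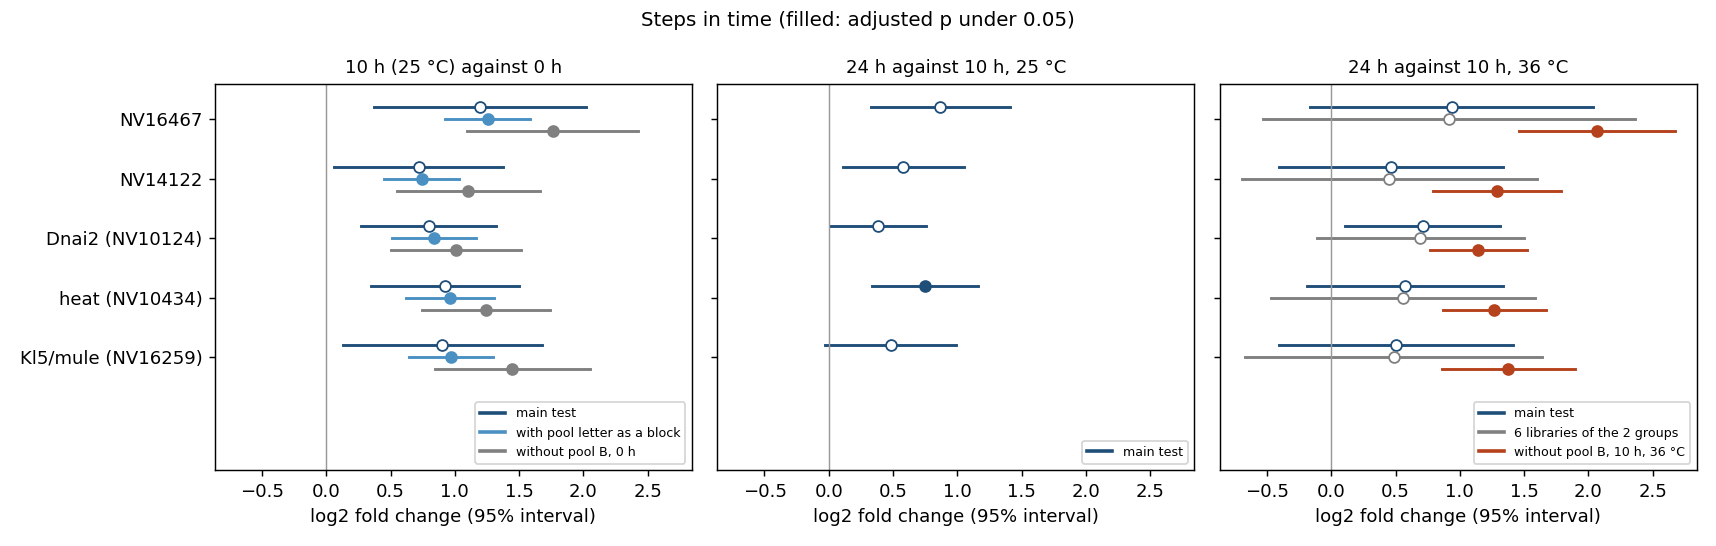
Log2 fold change with its 95% interval for each of the 5 genes from 0 h to 10 h at 25 °C, from 10 h to 24 h at 25 °C and from 10 h to 24 h at 36 °C, with filled points for an adjusted p under 0.05 in edgeR. Every point lies above 0, and at 36 °C the 5 genes pass only in the fit without pool B at 10 h.

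Exposure to 36 °C was compared with 25 °C at 10 h and at 24 h, in 1 fit over the 12 libraries of 4 groups. At 10 h all 5 genes were lower in mean, and none passed in edgeR (adjusted p 0.28 to 0.691, none with an unadjusted p under 0.05) or in DESeq2, where 1 had an unadjusted p under 0.05. Of all 8351 transcripts, 1.38% were called lower. The log2 fold change was -0.89 for Kl5 (95% interval -1.81 to 0.02), -0.51 for NV14122 (-1.38 to 0.36), -0.43 for NV16467 (-1.52 to 0.67), -0.42 for Dnai2 (-1.02 to 0.18) and -0.33 for heat (-1.09 to 0.43). These intervals are from the fit without pairing, while pools of equal letter deviated together in these groups. Kl5 and NV14122 were lower at 36 °C in all 3 letters, and NV16467, Dnai2 and heat in letters A and C. With the letter as a block, Kl5 had -1.01 (95% interval -1.76 to -0.26) and the other 4 had -0.63 to -0.44. None of the 5 passed there either in edgeR (adjusted p 0.125 to 0.473, 1 with an unadjusted p under 0.05), and 1.45% of all transcripts were called lower. In the 6 libraries of these groups with the block, Kl5 had -1.10 and none passed in edgeR (adjusted p 0.103 to 0.425, 2 with an unadjusted p under 0.05). Of 8252 transcripts, 64 were called lower there.

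Without pool B at 10 h and 36 °C, all 5 genes fell, Kl5 with a log2 fold change of -1.77 (SE 0.25), NV16467 of -1.56 (SE 0.28), NV14122 of -1.34 (SE 0.24), heat of -1.03 (SE 0.19) and Dnai2 of -0.86 (SE 0.18). The adjusted p was 0.000203 to 0.00252 in edgeR, and 14.8% of all transcripts were called lower in that fit. It did not pair the letters and kept pool B at 10 h and 25 °C, the highest of its group for each of the 5 genes. The size of these falls therefore rests in part on that pool. Pools A and C at 36 °C were below every pool at 10 h and 25 °C for each of the 5 genes. The share of all transcripts with this order was not counted, so that nothing is read from it. The summed level of the 5 germ line markers was 622 and 837 CPM in pools C and A and 2259 CPM in pool B, against 1706 to 2135 CPM at 25 °C. This sum is carried by klhl10 and cyclin B, whereas NV16500 of the aub/piwi genes had 16.3 and 12.2 CPM in pools A and C against 6.34 to 9.91 CPM at 25 °C. Without pool B, 2 of 4 tested germ line genes were lower, 3 of 5 transcripts were below 0 and the median log2 fold change was -0.773, against -0.013 over all transcripts. The fat body sum was 13.7 to 53.2 CPM at 10 h and 36 °C and 56.2 to 75.7 CPM at 10 h and 25 °C. The part of these markers in the fall of the 5 genes was not tested.

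At 24 h, NV16467, NV14122, heat and Kl5 were lower in each exposed pool than in each pool at 25 °C, as were 24.3% of all transcripts, and Dnai2 overlapped. In the fit of 12 libraries none of the 5 passed in edgeR (adjusted p 0.187 to 0.83, none with an unadjusted p under 0.05) or in DESeq2, where 1 had an unadjusted p under 0.05, and 5.9% of all transcripts were called lower. The log2 fold change was -0.88 for Kl5 (95% interval -1.79 to 0.04), -0.64 for NV14122 (-1.51 to 0.24), -0.52 for heat (-1.28 to 0.24), -0.37 for NV16467 (-1.46 to 0.72) and -0.11 for Dnai2 (-0.71 to 0.49). That fit takes 1 spread per gene from all 4 groups, pool B at 10 h and 36 °C included.

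With only the 6 libraries of the groups at 24 h, a fit chosen after the values were seen, 3 of 5 genes fell and 14.1% of all transcripts were called lower. Kl5 fell by 0.86 on the log2 scale (SE 0.14, adjusted p = 0.00269 in edgeR), to 0.55 times its level at 25 °C. NV14122 fell by 0.61 (SE 0.15, adjusted p = 0.0154) and heat by 0.49 (SE 0.14, adjusted p = 0.0265). NV16467 had a log2 fold change of -0.35 (95% interval -0.71 to 0.02) and Dnai2 of -0.08 (-0.37 to 0.20). The fit of 11 libraries without pool B at 10 h and 36 °C called the same 3 genes lower at 24 h (adjusted p 0.00631 to 0.0293), where 13.4% of all transcripts were. The summed germ line markers had 1794 to 2218 CPM at 36 °C and 2642 to 3409 CPM at 25 °C at 24 h, a sum carried by klhl10 and cyclin B. Over the list, 0 of 4 tested germ line genes passed in the fit of 12 libraries, 2 of 5 transcripts were below 0 and the median log2 fold change was 0.215, against -0.036 over all transcripts. In the 6 libraries, 1 of 4 tested germ line genes was lower, and the median was -0.104 against -0.0125 over all transcripts. In the fit of 11 libraries 1 of 4 was also lower, and the median was 0.218 against -0.036. The hexamerin genes of the fat body had 22.8 to 30.1 CPM at 36 °C and 73.2 to 89.2 CPM at 25 °C, with no overlap. The part of these markers and of the muscle genes in the result was not tested.

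When the effect of 36 °C at 24 h was set against that at 10 h, the change passed for none of the 5 genes (adjusted p 0.903 to 0.999 in edgeR, none with an unadjusted p under 0.05, and none in DESeq2). Among all 8351 transcripts 0% passed, with 654 at an unadjusted p under 0.05 and 13 called by DESeq2. The same test compares the step from 10 h to 24 h between the temperatures. Without pool B at 10 h and 36 °C the difference was positive for all 5, from 0.50 (SE 0.25) for heat to 1.19 (SE 0.36) for NV16467, which is a smaller fall at 24 h than at 10 h. None of the 5 passed there either (adjusted p 0.0875 to 0.254, 4 of 5 with an unadjusted p under 0.05), and 1.46% of all transcripts did.

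**Figure D3:**
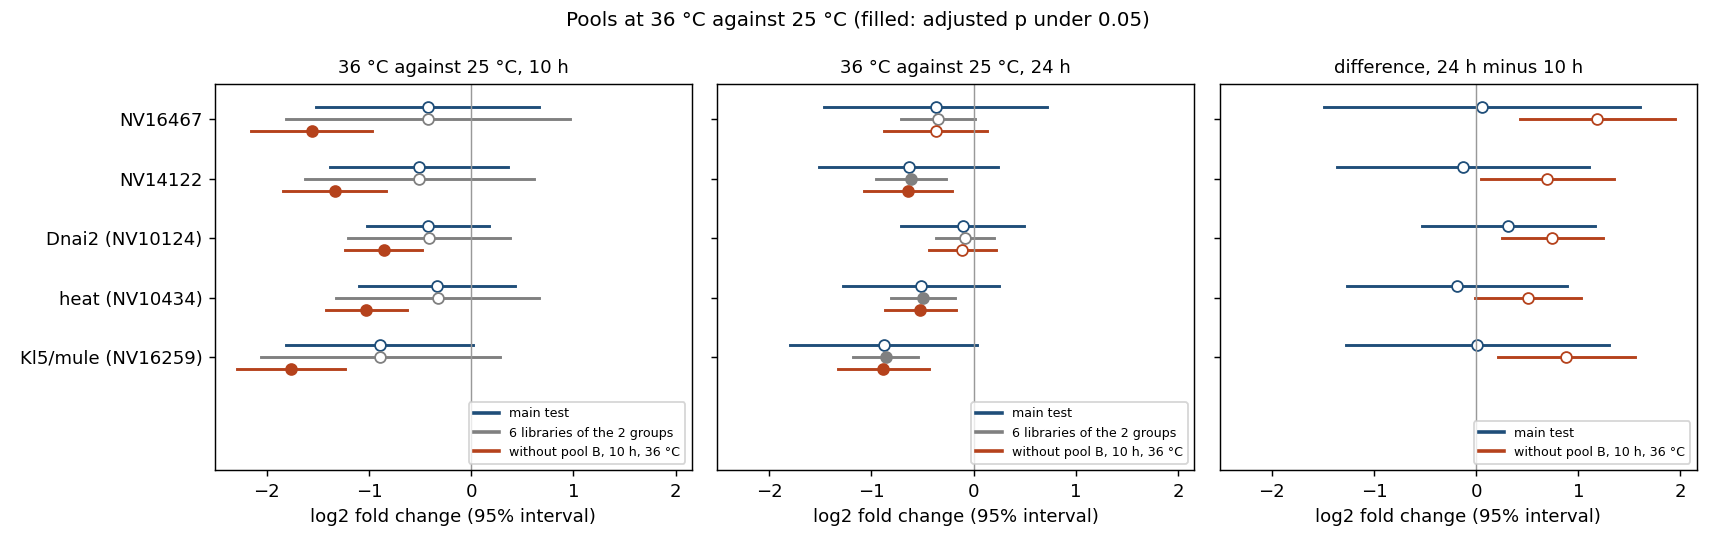
Log2 fold change of 36 °C against 25 °C at 10 h and at 24 h, and the difference between both, with 95% intervals for each of the 5 genes and filled points for an adjusted p under 0.05 in edgeR. Kl5 lies lowest at both times, near -0.89 and -0.88 in the main test, and Dnai2 lies near 0 at 24 h.

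The balance between the 5 genes was described as the share of each in their summed CPM, in which library size and any factor common to the 5 cancel. These shares tie the 5 values of a pool together, and no test was made on them. Kl5 held 15.4, 18.7 and 17.7% of the sum in pools A, B and C at 10 h and 25 °C, and 12.6, 13.7 and 12.7% at 10 h and 36 °C. At 24 h it held 13.5, 15.7 and 17.3% at 25 °C, and 12.2, 11.5 and 11.4% at 36 °C. Its share was thus lower in each exposed pool than in each pool of equal time at 25 °C, and pool B at 10 h and 36 °C, which stood far above pools A and C in level, was close to them in share.

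Dnai2 went the other way at 24 h, with 15.5, 12.8 and 13.7% of the sum at 25 °C and 21, 16.4 and 16.9% at 36 °C. At 10 h its share overlapped, with 13.9 to 22.1% at 25 °C and 14.5 to 23.3% at 36 °C. It was the highest in pool A in 5 of 5 groups, so that for this gene the pools of 1 letter differed from the others by as much as the temperatures did. NV16467 rose in share with time in both series, from 19.9 to 26.3% at 0 h and 24.4 to 31.5% at 10 h to 31.9 to 34.3% at 24 h at 25 °C, and from 22.9 to 33.6% at 10 h to 32 to 36.8% at 24 h at 36 °C. Here pool B at 10 h and 36 °C, at 33.6%, was in the range of the later pools. The gene heat kept 18.1 to 25.5% in all libraries, and NV14122 went from 18.7 to 21.7% at 0 h to 14.8 to 17% at 24 h at 25 °C and 13.4 to 15.1% at 24 h at 36 °C.

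Ratios of single pairs showed how Kl5 stood to the gene nearest to it in pattern. Kl5 over NV14122 was 0.933, 1.05 and 1.07 at 10 h and 25 °C and 0.754, 0.803 and 0.769 at 10 h and 36 °C, with no overlap. At 0 h, without exposure, it was 0.805, 1 and 0.81 in pools A, B and C. A ratio near that of the exposed pools was thus also found in pools A and C at 0 h. At 24 h it was 0.91, 0.938 and 1.02 at 25 °C and 0.913, 0.784 and 0.755 at 36 °C, where pool A of both groups was alike. Since a ratio of CPM also holds the unequal lengths of the transcripts, only its change between pools is read.

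**Figure D4:**
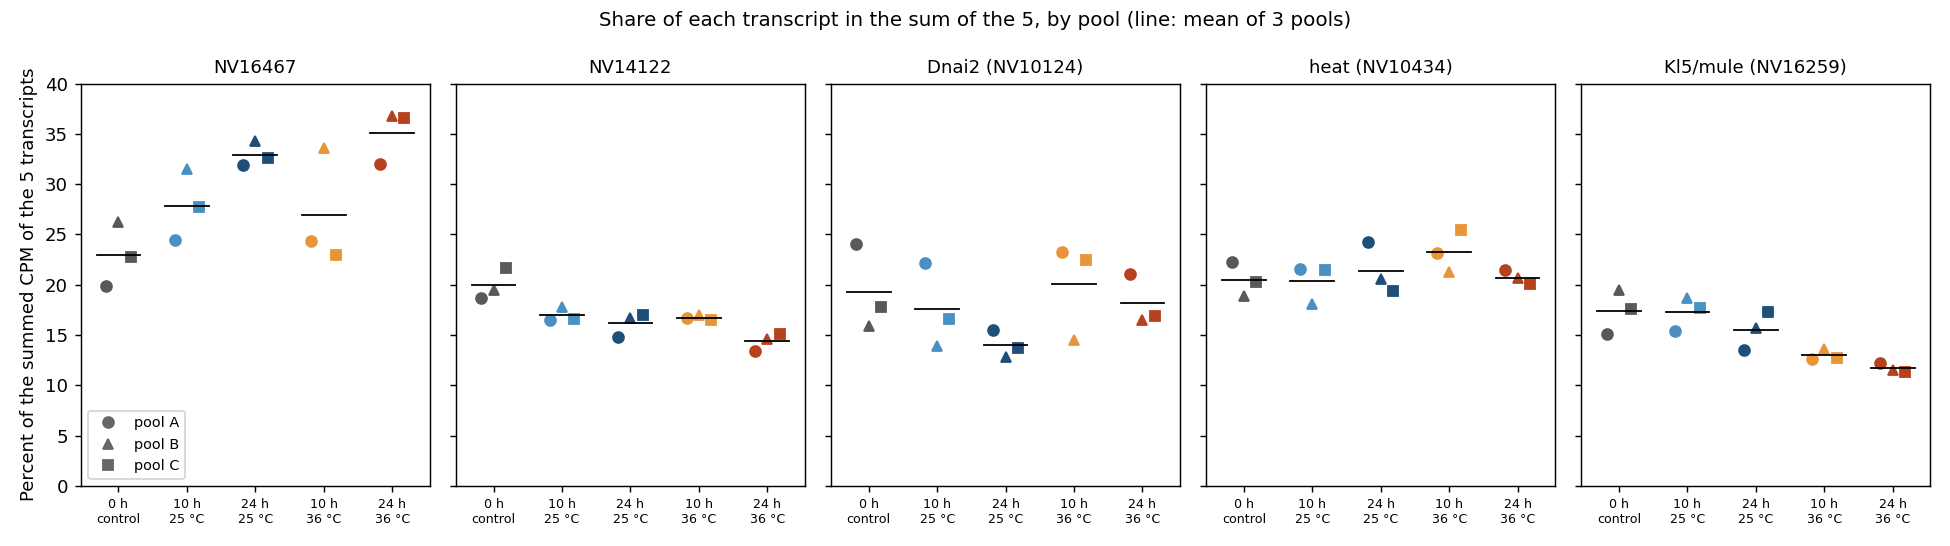
Share of each of the 5 transcripts in their summed CPM (percent, from 0) in each pool, with the mean of 3 pools as a line. Kl5 holds 11.4 to 13.7% in the 6 pools at 36 °C and 13.5 to 18.7% in the 6 pools of equal times at 25 °C.

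Other genes of the axoneme were taken from a list of 15 that the study names in its text or supplementary tables, of which 14 were in the counts. Adlip (NV15130, an axonemal dynein light intermediate chain), the radial spoke head gene NV15436 and the tubulin ligase-like genes TTLL3B (NV13119) and TTLL3A (NV18559) had no count in any library. By counting error alone this would allow up to 0.419 to 1.71 CPM (3 counts) per library. It does not cover reads that the counter may have dropped, since these 4 genes are split into 3 to 8 transcripts each, and the part of this in the zeros was not tested. Adlip and TTLL3B were measured in testis by qRT-PCR in the study, so that the zeros are not read as absence. From 0 h to 24 h at 25 °C, 6 of 7 tested genes of the list rose and none fell, where 19.9% of all transcripts were called higher. The median log2 fold change of the list was 1.07 against -0.05 over all transcripts. The 6 genes were cut up (NV13256, a dynein light chain, log2 1.25), the tektin NV13124 (1.43), the Cfap206 ortholog NV17778 (1.83), the Ttc30a2 ortholog NV15118 (0.52) and the alpha tubulins NV13570 (0.88) and NV13665 (0.84). For NV13124 this was 1 of 2 transcripts, and the other (log2 1.46) did not pass (adjusted p = 0.0702 in edgeR). The study named cut up for its change on these same stages, under spermatid differentiation and not under sperm motility. Whether the listed genes, the alpha tubulins and cut up among them, serve the axoneme alone was not tested.

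From 0 h to 10 h and from 10 h to 24 h at 25 °C, 0 of 7 genes of the list passed in edgeR, with medians of 0.55 and 0.56 against -0.05 and -0.025 over all transcripts. Of all transcripts, 3.4% and 3.22% were called higher in these steps. Against 25 °C, none of 8 tested genes of the list was called lower at 36 °C at 10 h or at 24 h, with medians of -0.10 and -0.30, where 1.38% and 5.9% of all transcripts were called lower. The Cfap43 ortholog NV16152, a gene of the ciliary axoneme in vertebrates, was called higher at both times, with 0 to 1.58 CPM in the 9 pools at 0 h and 25 °C and 3.66 to 4.67 CPM in the 6 pools at 36 °C. It passed the filter on low counts only through the pools at 36 °C, where it is high, so that its calls are not read as support, and in the 6 libraries at 10 h it had an adjusted p of 0.104. Without pool B at 10 h and 36 °C, 4 of 9 genes of the list were lower at 10 h, among them both alpha tubulins, NV17778 and lebercilin (NV11655), and 2 of 9, the alpha tubulins, at 24 h, where 14.8% and 13.4% of all transcripts were called lower. NV16152 was the 1 gene of the list called higher in both.

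Across the 15 libraries the log2 levels of the 5 genes followed each other, with Pearson's r from 0.841 (Dnai2 and Kl5) to 0.983 (NV14122 and Kl5). These values describe libraries that share groups and depth, and other transcripts are as alike, though their number was not counted. Among transcripts of at least 10 mean CPM, those nearest to the gene heat were LOC100678006 and NV10542 (r = 0.995) and 1 without a symbol (r = 0.994), and those nearest to NV16467 were NV10850 (r = 0.992), LOC100680025 and LOC100677964 (both 0.991). Nearest to Dnai2 were LOC103317746 (0.987), LOC103316396 (0.982) and LOC103315666 (0.981). LOC100677800 was among the 3 nearest of both NV14122 (0.985) and Kl5 (0.984). NV16380 (0.984) and NV17458 (0.98) were the others nearest to NV14122, and NV16963 (0.987) and LOC103317556 (0.979) to Kl5.

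Together the 5 transcripts took 0.294 to 0.597% of the counts at 0 h, 0.525 to 0.875% at 10 h and 0.815 to 0.985% at 24 h at 25 °C. At 36 °C they took 0.331, 0.837 and 0.269% in pools A, B and C at 10 h and 0.682 to 0.797% at 24 h. The exposed pools at 24 h held less than each pool at 25 °C, and pools A and C at 10 h and 36 °C were in the range of the pools at 0 h or just below it. Set against the first principal component, pool B at 10 h and 36 °C lay among the exposed pools of 24 h in the component and above them in the percent of counts.

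**Figure D5:**
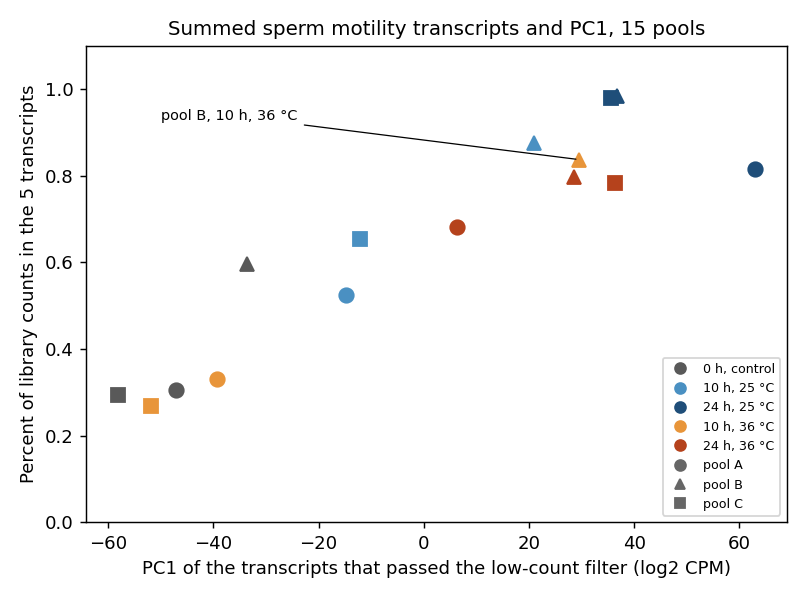
Percent of library counts in the 5 sperm motility transcripts (vertical axis, from 0) against the first principal component of the transcripts that passed the filter (horizontal axis), for the 15 pools. Pool B at 10 h and 36 °C (0.837%, 29.6) lies among the pools at 24 h and 36 °C on the horizontal axis and above them (0.682 to 0.797%) on the vertical axis, and pools A and C of its group (0.331 and 0.269%) lie by the pools at 0 h.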

How the data were processed

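Raw counts per RefSeq transcript were deposited by the authors, who aligned reads to the genome build Nvit_2.1 using TopHat2 (version 2.1.0 in the submitters' processing notes). Their methods name htseq-count and the notes featureCounts 1.6.3, so that the counter stayed unclear. The 6 deposited tables repeat the counts, and 39 of 39 repeated count columns were identical. Another 54 normalized columns and the authors' own fold changes and p-values were not used. The kit is labelled as stranded, and whether counting used strand was not stated there.

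From the counts, edgeR 4.0.16 (R 4.3.3) fitted robust quasi-likelihood models with TMM factors after filterByExpr, adjusted by Benjamini-Hochberg over all tested transcripts. An adjusted p under 0.05 passed. Steps in time at 25 °C used the 6 libraries of 2 groups, and comparisons with 36 °C used 12 libraries in 1 fit. Intervals are 95% t intervals from that fit. With 3 pools against 3, a permutation of 1 gene cannot give a p below 0.1. Alternatives were DESeq2 1.42.0, RLE scaling, no filter, all 15 libraries, the pool letter as a block and leaving out each pool. Fits without cuticle transcripts and with 6 libraries for 36 °C were added after the values were seen. The letters were taken as paired where all 3 correlations of deviations from the group means passed 0.1, which held for 0 h with 10 h at 25 °C (0.138 to 0.459) and for 10 h at 25 °C with 10 h at 36 °C (0.219 to 0.526). The code was tested on simulated counts. No pair of pools within a group agreed within sampling noise.

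The 5 genes and the gene lists were chosen with earlier results of these data known. Named genes are the 5, the axoneme genes that passed, and for each of the 5 the 3 other transcripts of at least 10 mean CPM with the highest Pearson's r of log2(CPM + 1). No symbol in the RefSeq table (Nvit_psr_1.1, in which 11605 gene IDs matched) names a dynein, and its coordinates were not used. Python 3.11.15 made summaries and figures.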

Additional observations from a re-analysis of the deposited data

How the results depend on the processing

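The limits rest on 3 pools per group and on single pools. Of the 5 genes, the number called from 0 h to 10 h at 25 °C was 0 in the main test, 5 without the filter on low counts, 5 with the replicate block, 2 in DESeq2 and 0 to 5 with each pool left out. From 10 h to 24 h at 25 °C it was 1 in the main test, 3 in DESeq2 and 0 to 4 with each pool left out. It was 0 with all 15 libraries in 1 fit, where 0 of 8807 transcripts were called. Without the filter it was 2 (608 of 16039 transcripts higher). With the replicate block it was 3 (492 of 7573 transcripts higher, letters not paired there, r -0.177 to 0.17). With each pool left out it was 0 to 5 for 36 °C against 25 °C at 10 h, 0 to 3 at 24 h and 0 to 5 from 10 h to 24 h at 36 °C, where the non-zero counts came from leaving out pool B at 10 h and 36 °C. With 6 libraries at 24 h it was 3, and 1 (Kl5) with the replicate block added, where 418 of 7501 transcripts were lower. The block changed no other count, and neither RLE scaling nor leaving out the cuticle transcripts changed any.

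Signs turned only for effects that did not pass. With each pool left out, the log2 effect of 36 °C on Dnai2 at 24 h ranged from -0.16 to 0.00097, the latter without pool A at 24 h and 25 °C. For the effect of 36 °C at 24 h minus that at 10 h, with each pool left out, NV16467 ranged from -0.31 to 1.19, NV14122 from -0.43 to 0.70, the gene heat from -0.45 to 0.50 and Kl5 from -0.30 to 0.88, and Kl5 had -0.0327 without the filter. The cause of these changes was not tested.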
